A study of Mus musculus with 24 samples.

Results

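The comparison described here sets 5 heart libraries of ovariectomised mice that received a miR-21 vector and trained by swimming against 6 that received an empty vector and trained in the same way. The 11 libraries were taken by their sample labels from 23 libraries with count columns, and all 21878 genes of the count table were used. MiR-21 swim stands for the label AAV9-OE miR-21+Swim+MI-3W and empty swim for AAV9-Empty+Swim+MI-3W. The 6 miR-21 rest libraries (AAV9-OE miR-21+Control+MI-3W) and 6 empty rest libraries (AAV9-Empty+Control+MI-3W) came from mice with the same vectors that did not swim. Every group shared the ovariectomy, an AAV9 particle and a myocardial infarction (MI), and each heart was taken 3 weeks after it, so no group here was without a virus, without an infarct or with ovaries. Swimming preceded the infarction. The promoter of the vector, the strain and the age are not given in the labels. Nothing there says that each library came from its own mouse, so the p-values reflect only how far these samples differ, which may be technical. Replicate 6 of miR-21 swim was not analysed here.

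MicroRNAs are short RNAs that guide Argonaute proteins to messenger RNAs, mostly through pairing of their seed with the 3' untranslated region (UTR), after which the messenger is less translated or less stable. MiR-21 is abundant in the infarcted heart, above all in fibroblasts, and its published targets include inhibitors of growth factor signalling such as Spry1 and the tumour suppressor Pdcd4. An infarct heals by inflammation, fibroblast activation with collagen deposition, and growth of new vessels, and the dividing cells of a healing heart are mainly fibroblasts, endothelial cells and leukocytes. AAV9 is a virus that reaches heart muscle cells well. The series title places Sox7, an endothelial transcription factor of the SoxF family, downstream of miR-21, which makes it the first gene of interest in the comparison of the vectors.

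Depth was even, with 12839383 to 14546209 counts in miR-21 swim and 13343385 to 14082098 in empty swim. MiR-21 swim replicate 2 stood apart. Its lowest Pearson correlation of log2 CPM (counts scaled to library size) with another replicate, across genes, was 0.912, against a lowest of 0.982 in empty swim, and it lay at -84.3 on the first principal component (43.9% of the variance), where the other 10 swimming libraries lay between -7.43 and 30.7. It held 1496 CPM of neutrophil markers (at most 63.4 in the other miR-21 swim libraries, 71.9 in empty swim), 601 of lymphocyte markers (at most 17.2 and 18) and 293 of mesothelial markers (at most 37.5 and 33.5), and its 24 sarcomere genes summed to 83564 CPM, below the 130423 to 155546 of the other miR-21 swim libraries and the 122548 to 138943 of empty swim. The numbers in the sample titles were under 2000 in all 12 resting libraries and in replicates 1 and 2 of miR-21 swim, and 2000 or above in replicates 3 to 5 and in all 6 empty swim libraries. What the numbers stand for is not stated. Many of the results below are given with and without replicate 2.

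The RNA that the vector carries and the sequences it could pair with were taken from RefSeq (GRCm38.p6) and from the GENCODE annotation of GRCm38. The mature strand is shown first because its seed, bases 2 to 8, in capitals, defines the 7-base site searched for. It lies at chr11:86584120-86584141, on the minus strand.
mmu-miR-21a-5p: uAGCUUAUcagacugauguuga
The counts come from a poly(A) library and hold no value for mature miR-21, so the level reached by the vector cannot be read from them. Vmp1, an autophagy gene that overlaps the miR-21 locus, had 39.1, 68.4, 46.7, 48.2 and 44.5 CPM in miR-21 swim replicates 1 to 5, against a lowest of 40.2, a median of 45.9 and a highest of 50.3 in empty swim. Only replicate 2 lay above the empty swim range, and the log2 fold change of 0.12 ± 0.13 (SE, n = 5 and 6) did not pass the test (edgeR quasi-likelihood, Benjamini-Hochberg adjusted p = 0.660).

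Complements of the seed were counted in the 3' UTRs of 12969 tested genes. The 7-base site, ATAAGCT, was in the UTR of 1013 genes (7.81%), of which 2.07% fell and 1.58% rose with the miR-21 vector, against 2.75% and 1.86% of the 11956 genes without it. Their median log2 fold changes were 0.02 in both sets. The 300 genes with the 8-base site, ATAAGCTA, which adds the base opposite position 1 of the miRNA, had 5 falls (1.67%) and 2 rises (0.667%). UTRs with the 7-base site were longer (median 2821 bases) than those without (1098 bases). Genes with a site were called in a smaller share than those without, and sites in UTRs are a match of letters, not a measured interaction.

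Among the 5 genes with the 8-base site that fell, Gimap8, a GTPase of lymphocytes and endothelium, and Itga1, the alpha 1 chain of a collagen receptor, are shown with 8 bases either side of the site, in capitals. They were chosen after their values were seen. Itga1 had one site of each length.
Gimap8: catagtagATAAGCTAagagttgt
Itga1 (7 bases): gctgtaacATAAGCTtgcagatt
Itga1 (8 bases): cccctgacATAAGCTAcatattag
Itga1 had 34.5, 24.4, 27.2, 32.8 and 27.8 CPM in miR-21 swim, against 27.1, 43.0 and 46.4 (lowest, median and highest) in empty swim, a log2 fold change of -0.47 ± 0.11 (adjusted p = 0.0174). A single empty swim library lay among the miR-21 swim values. Gimap8 fell by 0.44 ± 0.10 on the log2 scale (adjusted p = 0.0163), with 18.4 to 29.7 CPM in miR-21 swim and 25.2 to 35.1 in empty swim.

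The UTR sites of 4 published targets with the same 8-base site are shown for comparison, because 0 of the 4 genes passed the test.
Pdcd4: gtgttctgATAAGCTActttctaa
Spry1: gtgcttaaATAAGCTAtatattaa
Reck: agtttgaaATAAGCTAttaatgta
Timp3: agctttcaATAAGCTAtagctttg
Pdcd4, an inhibitor of translation, had 17.5, 33.2, 18.7, 21.1 and 20.9 CPM in miR-21 swim, against 17.4, 20.3 and 21.2 in empty swim, so that replicate 2 alone was high. Its log2 fold change was 0.18 ± 0.15 (adjusted p = 0.540) and -0.00074 without replicate 2. Spry1, an inhibitor of receptor tyrosine kinase signalling, had a log2 fold change of 0.19 ± 0.15 (adjusted p = 0.509) and Reck, a membrane inhibitor of metalloproteinases, one of -0.05 ± 0.15 (adjusted p = 0.900). Timp3, a secreted inhibitor of the same enzymes, had 353 to 504 CPM in miR-21 swim and 329 to 469 in empty swim (log2 fold change 0.21 ± 0.12, adjusted p = 0.338). For all 4 genes the 2 groups overlapped. Of the 27 tested genes on a list of published miR-21 targets, 1 fell and 0 rose, with a median log2 fold change of 0.02 and a range from -0.84 to 0.80, and the one that fell was Sox7. Without replicate 2, 3 of the 27 fell at a median of -0.03, beside 914 falls over all genes. Among the libraries with title numbers of 2000 and above 2 fell, beside 697 over all genes. All genes tested had a median of 0.02, and 2.71% of them fell. Sox7 is also the gene of the series title, and the list was written with earlier results of these data known.

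With the miR-21 vector, 252 genes rose (1.87% of the 13501 tested) and 366 fell (2.71%) in swimming mice, 618 in all (4.58%). Falls were larger than rises, with a median log2 fold change of -0.50 for the genes that fell and 0.38 for those that rose, and 83 falls and 41 rises exceeded 1 on that scale. In 351 of the 366 falls all 5 miR-21 swim libraries lay below the mean of empty swim, and in 208 of the 252 rises all 5 lay above it. The libraries of the 2 groups did not overlap at all for 283 of the 618 genes (439 of all genes tested, 3.25%), higher in 107 (1.36% of all genes tested did not overlap and were higher) and lower in 176 (1.9% and lower). The number of calls moved with single libraries: it was 1871 without miR-21 swim replicate 2, 404 without replicate 1 and 362 without replicate 5 of that group, and 330, 406 and 339 without empty swim replicates 2, 4 and 5. Without replicate 2, 583 of the 618 genes (94.3%) were among the 1871. Over all genes that fit had 957 rises and 914 falls, so list counts given without replicate 2 stand beside these larger totals. A fit of the 2 groups alone called 165 genes, 158 of them among the 618, and the cause of the smaller count was not tested. Among title numbers of 2000 and above, 3 libraries against 6, 647 genes rose and 697 fell, and these held 465 of the 618 (75.2%).

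**Figure D1:**
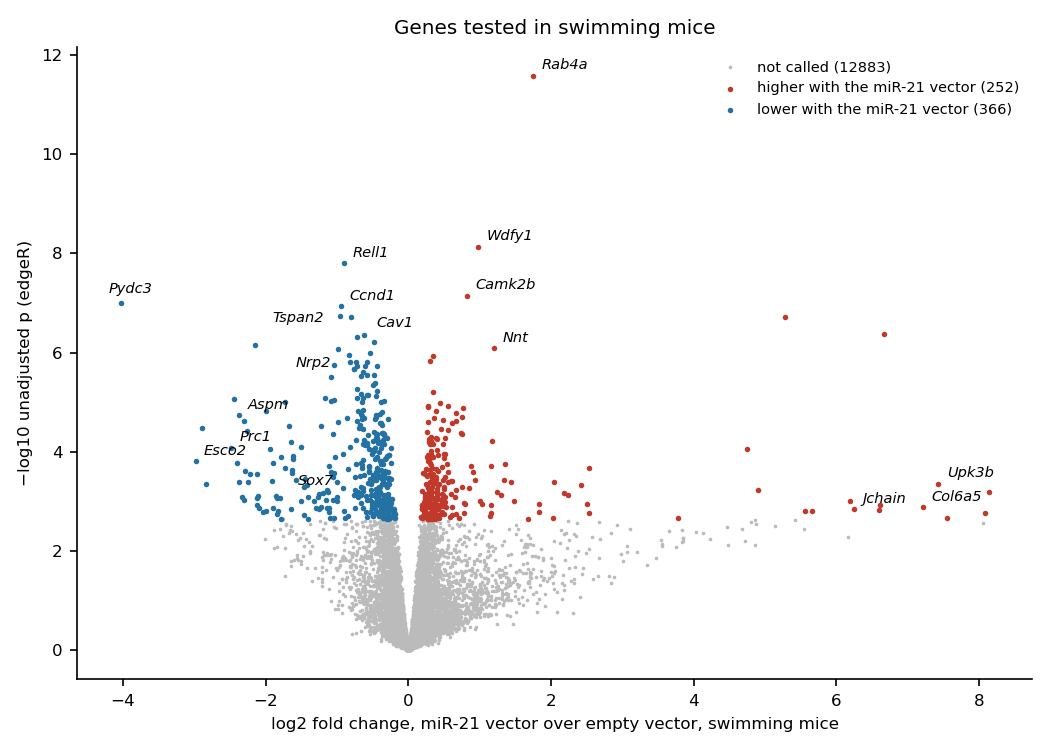
Log2 fold change of each tested gene, miR-21 vector over empty vector in swimming mice (horizontal axis), against −log10 of its unadjusted p (vertical axis). Red points are the 252 genes that rose, blue points the 366 that fell and grey points the rest, and Rab4a stands above all others while Upk3b, Col6a5 and Jchain lie far to the right with less extreme p.

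In 9 of the 12 genes with the smallest p (6 rises and 6 falls), the empty swim libraries stood apart from the miR-21 swim libraries and from both resting groups, the exceptions being Nnt, Tbc1d17 and Tpm4. All 6 empty swim libraries lay outside the range of the 17 other libraries in 72 of the 618 genes (76 of all genes tested, 0.563%), above it in 54 and below it in 18. Those 6 libraries also separated from the 17 others on the second principal component (12.6% of the variance), at 19.8 or more, against 0.60 or less. In 13 of the 618 genes it was the 5 miR-21 swim libraries that lay outside the range of the 18 others (17 of all genes tested, 0.126%). The 72 became 131 without miR-21 swim replicate 2 and 134 without empty swim replicate 3, and the 13 became 60 without miR-21 swim replicate 2, 22 and 21 without replicates 3 and 4 of that group, and 8 and 7 without empty swim replicates 2 and 5.

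Rab4a, a small GTPase that returns receptors from early endosomes to the cell surface, had the smallest p of all. It had 17.9, 10.5, 15.9, 14 and 18.5 CPM in miR-21 swim, against a lowest of 3.34, a median of 4.71 and a highest of 5.51 in empty swim. Replicate 2 was the lowest of its group and still well above every empty swim library. The log2 fold change was 1.75 ± 0.13 (adjusted p = 3.59e-08), and the resting libraries, at 13.8 to 18.4 with the miR-21 vector and 12.2 to 14.4 with the empty one, lay with miR-21 swim. Wdfy1, an endosomal adaptor of Toll-like receptor signalling, showed the same arrangement with little spread. Its miR-21 swim libraries held 32.9, 33.2, 33.4, 32.8 and 35.1 CPM, against 14, 15.5 and 25.2 in empty swim, and the 12 resting ones 30.1 to 39.6. The log2 fold change was 0.98 ± 0.11 (adjusted p = 4.95e-05).

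Camk2b, a calcium/calmodulin-dependent kinase subunit, had 23, 17.2, 15.7, 19.7 and 16.3 CPM in miR-21 swim, against 8.80, 10.5 and 12.2 in empty swim, with no overlap and a log2 fold change of 0.83 ± 0.11 (adjusted p = 0.000243). Ube2h, a ubiquitin-conjugating enzyme, differed by less but as cleanly, with 79.8 to 87.7 CPM in miR-21 swim, 62.7 to 71.7 in empty swim and 79.9 to 92.8 at rest (0.31 ± 0.05, adjusted p = 0.000926). Gm41885, a predicted gene chosen after its values were seen, had 6.0, 15.5, 12.2, 4.12 and 3.13 CPM in miR-21 swim, against 0, 0.0697 and 0.153 in empty swim, and 3.56 to 30.1 in the resting libraries. It was close to absent in empty swim alone. Its fitted log2 fold change of 6.67 ± 0.92 (adjusted p = 0.000541) rests on very few empty swim counts.

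Nnt, the mitochondrial transhydrogenase that makes NADPH from NADH, and whose gene carries a deletion in the C57BL/6J strain, had 1456, 536, 1642, 1043 and 1469.8 CPM in miR-21 swim. Empty swim held 504, 508 and 615 CPM, so that replicate 2 lay inside the empty swim range and the other 4 libraries far above it. The log2 fold change was 1.21 ± 0.18 (adjusted p = 0.000731), and 1.41 without replicate 2. At rest the gene had 1184 to 1373 CPM with the miR-21 vector and 739.7 to 1098 with the empty vector. The labels name no strain.

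Higher levels in empty swim than anywhere else were seen for Pydc3, Rell1, Ccnd1, Tspan2 and Mest. Pydc3, a PYHIN protein of the interferon-inducible nucleic acid sensor family, had 0.150, 0.471, 0.156, 0.147 and 0.0824 CPM in miR-21 swim, against 2.65, 3.52 and 4.44 in empty swim. No other library of the 23 exceeded 0.602, and the log2 fold change was -4.03 ± 0.53 (adjusted p = 0.000258). The other 8 tested members of that family did not pass the test, with a median over all 9 of 0.07. Rell1, a receptor expressed in lymphoid tissue like protein, had 13.7, 16.5, 11.6, 13.3 and 10.8 CPM in miR-21 swim and 22.3 to 27.2 in empty swim (-0.90 ± 0.11, adjusted p = 7.01e-05). Tspan2, a tetraspanin of the cell membrane, had 7.80 to 13.7 CPM in miR-21 swim and 17.1 to 24.3 in empty swim (-0.96 ± 0.13, adjusted p = 0.000291).

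Mest, an imprinted gene of mesodermal growth chosen after its values were seen, had 12.7, 12.6, 3.67, 14.5 and 6.59 CPM in miR-21 swim, against 26.9, 40.5 and 66.9 in empty swim. The groups were far apart, and both resting groups (6.37 to 14.4 with the miR-21 vector, 7.55 to 17.7 with the empty vector) covered much the same range as miR-21 swim. Its log2 fold change was -2.15 ± 0.31 (adjusted p = 0.000694). Tpm4, a tropomyosin of the non-muscle cytoskeleton, fell by 0.81 ± 0.11 (adjusted p = 0.000291), with 93.6 to 169 CPM in miR-21 swim and 181 to 233 in empty swim. For Tpm4 the empty rest libraries, at 155 to 189, reached into the empty swim range.

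Of the 13 genes in which miR-21 swim itself stood apart, Tbc1d17, a Rab GTPase-activating protein, was among the 6 rises with the smallest p. It had 40.5, 41.8, 45.3, 39.2 and 40.0 CPM in miR-21 swim, against 30.8, 32.2 and 34.6 in empty swim, and 29.1 to 37.6 in the resting libraries. All 5 were above every other library, with a log2 fold change of 0.35 ± 0.05 (adjusted p = 0.000853). Rplp2, a stalk protein of the large ribosomal subunit, was one of the 7 below all others, at 174 to 196 CPM in miR-21 swim, 197 to 256 in empty swim and 215 to 276 at rest (-0.38 ± 0.07, adjusted p = 0.00404). The groups met almost edge to edge for Rplp2, which was chosen after its values were seen.

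**Figure D2:**
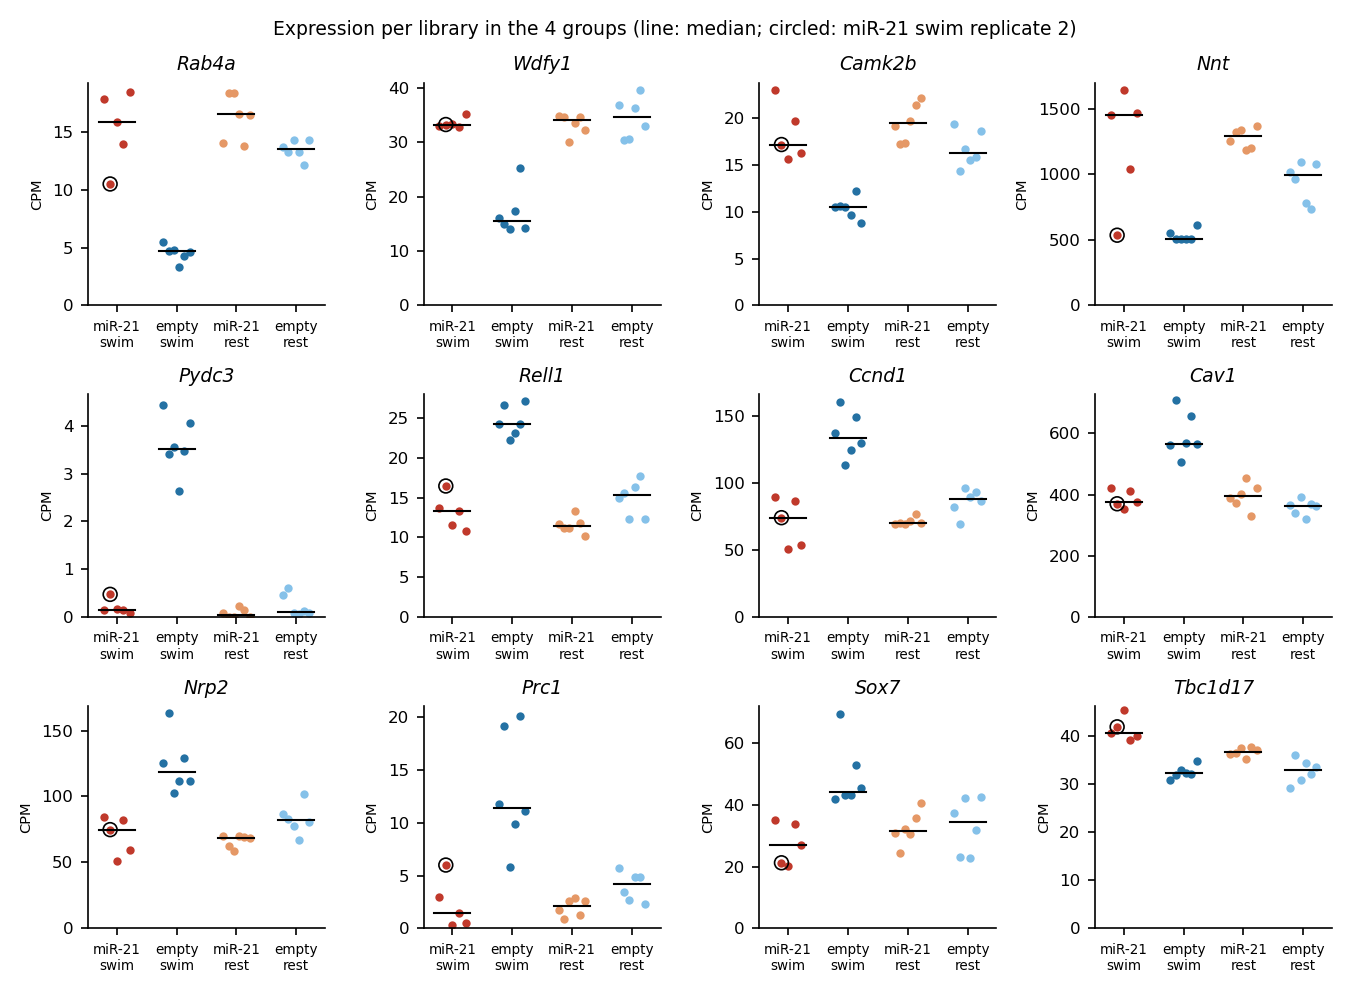
TMM-normalised CPM (vertical axes) of 12 genes in each library of the 4 groups, miR-21 swim, empty swim, miR-21 rest and empty rest from left to right, with a line at the median and miR-21 swim replicate 2 circled. The empty swim points of Rab4a, Wdfy1, Camk2b, Pydc3, Rell1, Ccnd1, Cav1 and Nrp2 lie outside those of the 3 other groups, the replicate 2 point of Nnt lies among them, and Tbc1d17 has its highest points in miR-21 swim.

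Genes of mitosis were lower with the miR-21 vector. Of 34 genes for spindle, kinetochore and cytokinesis proteins, 18 fell, 0 rose, and all 34 had a log2 fold change under 0, with a median of -1.61 beside 0.02 for all genes tested and a share of falls of 2.71% over all genes. Summed, they held 84.3, 198, 41.7, 51.2 and 45.5 CPM in miR-21 swim, against a lowest of 154, a median of 220 and a highest of 391.8 in empty swim. Replicate 2 was the only miR-21 swim library within the empty swim range. In bulk tissue fewer dividing cells and less RNA per cell cannot be told apart. The count of 18 moved with single libraries, to 33 without miR-21 swim replicate 2, to 11, 9 and 10 without replicates 3, 4 and 5, and to 9 and 10 without empty swim replicates 2 and 5. The fit of the 2 groups alone called 1 of the 34, at a median of -1.59, and the fit among title numbers of 2000 and above called 33.

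Promoters of these genes are shown because cell cycle genes are known to carry a cell cycle genes homology region, TTTGAA or TTCGAA, that binds the DREAM and MYB-MuvB complexes, together with CCAAT boxes bound by NF-Y. Each covers 250 bases before to 50 after the RefSeq start (GRCm38.p6) and is read 5' to 3' on the strand of its gene, with these motifs on either strand in capitals (TTTGAA is then also seen as TTCAAA and CCAAT as ATTGG, while TTCGAA is its own reverse complement). Prc1 lies at chr7:80294201-80294500 on the plus strand, Kif23 at chr9:61946750-61947049 on the minus strand and Ect2 at chr3:27153829-27154128 on the minus strand. Ect2 was chosen after its values were seen.
Prc1: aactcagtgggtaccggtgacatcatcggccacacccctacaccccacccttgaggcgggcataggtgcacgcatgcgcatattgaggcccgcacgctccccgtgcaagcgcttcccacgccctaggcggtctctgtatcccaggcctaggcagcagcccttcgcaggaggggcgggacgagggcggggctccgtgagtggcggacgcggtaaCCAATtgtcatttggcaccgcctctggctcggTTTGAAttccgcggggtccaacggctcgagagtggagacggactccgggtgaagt
Kif23: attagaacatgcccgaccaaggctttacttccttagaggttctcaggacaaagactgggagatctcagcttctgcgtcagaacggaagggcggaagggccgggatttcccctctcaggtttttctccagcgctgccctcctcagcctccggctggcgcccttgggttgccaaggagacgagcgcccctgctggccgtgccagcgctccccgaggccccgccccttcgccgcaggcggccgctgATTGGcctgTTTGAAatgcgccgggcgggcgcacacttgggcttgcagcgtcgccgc
Ect2: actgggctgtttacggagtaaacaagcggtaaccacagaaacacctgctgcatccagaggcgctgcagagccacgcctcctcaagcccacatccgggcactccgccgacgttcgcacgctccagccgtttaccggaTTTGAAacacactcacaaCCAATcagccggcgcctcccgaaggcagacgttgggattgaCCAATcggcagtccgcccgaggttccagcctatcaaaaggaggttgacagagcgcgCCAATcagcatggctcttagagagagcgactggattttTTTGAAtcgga
A TTTGAA was found in 11 of the 14 promoters of called mitosis genes in the table (78.6%), in 21 of the 29 on the list (72.4%) and in 11.7% of the 10320 promoters of tested genes. CCAAT was in 78.6%, 72.4% and 38.4% of the same sets, and TTCGAA in 14.3%, 10.3% and 2.11%. The motifs were counted separately, so a promoter can hold several. A match is a description and was not linked to binding in these hearts.

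Prc1, which bundles microtubules at the spindle midzone, had 3.00, 6.0, 0.312, 1.47 and 0.494 CPM in miR-21 swim, against 5.79, 11.4 and 20.1 in empty swim. Only replicate 2 reached the lowest empty swim library. The log2 fold change was -2.48 ± 0.51 (adjusted p = 0.00785), and -3.26 without replicate 2. Kif23, a kinesin of the same midzone, had 2.78, 4.41, 0.546, 1.32 and 1.24 CPM in miR-21 swim and 4.16, 7.07 and 14.9 in empty swim (-2.0 ± 0.37, adjusted p = 0.00327). Kif4, the chromokinesin that works with Prc1, fell by 1.73 ± 0.31 (adjusted p = 0.00256), with 0.624 to 2.65 CPM in miR-21 swim and 2.90 to 7.08 in empty swim, so that these groups did not overlap.

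Other genes of cell division fell as well. Esco2, which acetylates cohesin in S phase, had 0, 0.882, 0, 0.221 and 0 CPM in miR-21 swim, against 1.11, 1.99 and 2.76 in empty swim (-2.98 ± 0.66, adjusted p = 0.0115). Fam64a, a partner of the clathrin assembly protein CALM that marks proliferating cells, fell by 2.90 ± 0.56 (adjusted p = 0.00492), and Aspm, a spindle pole protein, by 2.37 ± 0.44 (adjusted p = 0.00361). In these 3 genes and in Pbk, a mitotic kinase (-2.41 ± 0.54, adjusted p = 0.0124), the 6 empty swim libraries lay above all 17 others. Ckap2l, a spindle protein, fell by 2.44 ± 0.43 (adjusted p = 0.00246), Bub1, a kinase of the spindle checkpoint, by 2.38 ± 0.58 (adjusted p = 0.0198) and Anln, the actin-binding anillin of the contractile ring, by 1.67 ± 0.32 (adjusted p = 0.00444). Replicate 2 was the highest miR-21 swim library for Ckap2l, Bub1 and Anln and overlapped empty swim in Bub1 and Anln.

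DNA replication genes moved less. Of 27 tested, 2 fell and 0 rose, beside 2.71% of falls over all genes tested, and the median log2 fold change was -0.44. The 2 were Cdc45, part of the replicative helicase (-0.60 ± 0.15, adjusted p = 0.0285), and Uhrf1, which keeps DNA methylation through replication. Uhrf1 had 2.55, 8.47, 2.03, 2.43 and 2.55 CPM in miR-21 swim, against 4.97, 7.25 and 11.5 in empty swim (-1.14 ± 0.31, adjusted p = 0.0378), and replicate 2 again lay in the empty swim range with the other 4 below it. Without replicate 2, 16 of the 27 fell and the median was -0.77. The 2 calls were 0 in the fit of the 2 groups alone and without any one of miR-21 swim replicates 1, 3, 4 and 5 or empty swim replicates 2 and 5, and 1 without empty swim replicate 1 or miR-21 rest replicate 1.

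D cyclins went in opposite directions. Ccnd1, cyclin D1, which drives cells out of G1, had 89.4, 74.2, 51.0, 86.3 and 53.9 CPM in miR-21 swim, against 113, 134 and 161 in empty swim, with a log2 fold change of -0.94 ± 0.12 (adjusted p = 0.000258). Every empty swim library was above the 17 others. Ccnd2, cyclin D2, rose by 0.46 ± 0.13 (adjusted p = 0.0362), at 144 to 238 CPM in miR-21 swim and 125 to 181 in empty swim, with overlapping groups. Cdkn2c, a CDK4/6 inhibitor, fell by 0.61 ± 0.13 (adjusted p = 0.00721). The other 16 of the 19 tested genes for D cyclins, CDK inhibitors and p53 targets did not pass the test, and the median was 0.07. Without replicate 2 of miR-21 swim, 5 of the 19 fell and 2 rose.

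Over all genes tested 2.71% fell and 1.87% rose, shares that stand beside this list and those below. Of 30 endothelial genes, 8 fell and 0 rose, the median log2 fold change was -0.23, and 23 of the 30 were under 0. Their summed level was 3669, 3321, 3509, 3555 and 3446 CPM in miR-21 swim, against 3824, 4026 and 4179 in empty swim, so that the 2 groups did not overlap. The resting libraries, at 3365 to 3646 with the miR-21 vector and 3203 to 3780 with the empty one, also lay below empty swim. Without replicate 2, 9 of the 30 fell, and in the fit of the 2 groups alone 5 did. None of 18 genes that mark arterial, venous, capillary or lymphatic endothelium passed the test (lowest adjusted p = 0.189). Of these 18, 13 were above 0 and 5 under it, at a median of 0.08 (-0.0015 without replicate 2).

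Cdh5, the cadherin of endothelial junctions, had 395, 286, 322, 358 and 341 CPM in miR-21 swim, against 373, 485 and 513 in empty swim (-0.46 ± 0.09, adjusted p = 0.00624). A single miR-21 swim library was above the lowest empty swim one. Rasip1, which is needed for vessel lumens to open, had 68.1 to 77.4 CPM in miR-21 swim and 89.0 to 111 in empty swim (-0.39 ± 0.07, adjusted p = 0.00256). Icam2, an endothelial adhesion molecule, had 17.9 to 28.2 CPM in miR-21 swim and 29.8 to 46.1 in empty swim (-0.66 ± 0.12, adjusted p = 0.00357). For Rasip1 and Icam2 empty swim exceeded all other libraries.

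Caveolae, the flask-shaped membrane pits that are dense in endothelium, had lower transcripts of several coat proteins. Of 10 genes 4 were lower and 0 higher, with a median of -0.30, beside 2.71% of falls over all genes tested. Cav1, the main coat protein, had 421, 369.7, 352, 411 and 375 CPM in miR-21 swim, against 506, 567 and 708 in empty swim, a log2 fold change of -0.62 ± 0.09 (adjusted p = 0.000541). Cav2, its partner, had 50.7 to 64.0 CPM in miR-21 swim and 80.7 to 91.1 in empty swim (-0.54 ± 0.08, adjusted p = 0.000830). In both genes the lowest empty swim library was above all 17 others. Ehd2, an ATPase at the caveolar neck, fell by 0.47 ± 0.08 (adjusted p = 0.00158), with 196 to 238 CPM in miR-21 swim and 240.2 to 339 in empty swim.

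Sox7 fell with the miR-21 vector in swimming mice. It had 35.1, 21.2, 20.3, 33.9 and 27.0 CPM in miR-21 swim, against 42.0, 44.3 and 69.6 (lowest, median and highest) in empty swim. Each miR-21 swim library lay below each empty swim library. The log2 fold change was -0.84 ± 0.19 (adjusted p = 0.0144), and it passed the test in all 34 alternative settings, at -0.75 without replicate 2. At rest Sox7 had 24.4 to 40.8 CPM with the miR-21 vector and 22.8 to 42.6 with the empty vector (-0.04 ± 0.18, adjusted p = 0.907), and the difference between the vector effects in swimming and resting mice was -0.81 ± 0.26 (adjusted p = 0.103), which did not pass. The Sox7 UTR of 2073 bases had 0 matches to the 7-base site, which says only that those letters are not in this annotated UTR.

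The other two SoxF factors did not pass. Sox18, which acts with Sox7 in vessel development, had 62.0, 52.3, 42.8, 65.0 and 48.7 CPM in miR-21 swim, against 66.0, 73.2 and 87.0 in empty swim (-0.45 ± 0.14, adjusted p = 0.0561), with no overlap although the test was missed. It passed in 7 of 34 settings, among them the fit of title numbers of 2000 and above alone (adjusted p = 0.0241), where 2 of the 3 SoxF genes fell. Sox17, a factor of arterial endothelium, had 29.0 to 40.3 CPM in miR-21 swim and 28.9 to 34.9 in empty swim (0.17 ± 0.12, adjusted p = 0.425). Among 10 tested factors that work beside SoxF proteins, Ets1 (-0.49 ± 0.10, adjusted p = 0.00663) and Erg (-0.43 ± 0.09, adjusted p = 0.0102), ETS factors of endothelium, fell. Prox1, which sets lymphatic identity and is also made in heart muscle, rose by 0.55 ± 0.13 (adjusted p = 0.0198), with 108, 46.8, 92.0, 87.9 and 93.7 CPM in miR-21 swim against 52.1, 55.9 and 70.9 in empty swim. Replicate 2 was below every empty swim library and the other 4 were above all of them. The fit of the 2 groups alone called none of Ets1, Erg and Prox1, with adjusted p of 0.0805, 0.0682 and 0.118.

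Vessel guidance and growth genes fell in part, 4 of 16 with 0 rises and a median of -0.10, beside 2.71% of falls over all genes tested. Nrp2, a co-receptor of VEGF-C and class 3 semaphorins, had 84.4, 74.8, 50.7, 82.2 and 59.5 CPM in miR-21 swim, against 103, 119 and 163 in empty swim (-0.82 ± 0.13, adjusted p = 0.000926). Plxnd1, an endothelial semaphorin receptor, fell by 0.65 ± 0.12 (adjusted p = 0.00375), at 158 to 265 CPM in miR-21 swim and 273 to 412 in empty swim. Neither gene had an overlap. Apln, the peptide apelin of sprouting tip cells, had 18, 11, 6.17, 14.1 and 11.2 CPM in miR-21 swim and 16.1 to 31.3 in empty swim (-1.06 ± 0.21, adjusted p = 0.00557). The 4 calls were 1 in the fit of the 2 groups alone.

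Of 16 Notch pathway genes, 2 fell, Nrarp, a target and feedback inhibitor of Notch (-0.68 ± 0.16, adjusted p = 0.0174), and Jag2, a ligand (-0.36 ± 0.10, adjusted p = 0.0355). Jag2 had 76.3, 49.6, 71.6, 67.4 and 69.6 CPM in miR-21 swim, all below the 79.2 to 91.7 of empty swim. The pair was 1 call without any one of empty swim replicates 1, 2 and 5 or miR-21 swim replicates 4 and 5, and 0 in the fit of the 2 groups alone. The median of the list was -0.13, and 2.71% of all genes tested fell.

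Basement membrane genes fell in 5 of 14, with 0 rises and a median of -0.31, beside 2.71% of falls over all genes tested. Lamb1, the beta 1 chain of laminins, had 173, 152, 150.2, 157 and 166 CPM in miR-21 swim, against 196, 225 and 246 in empty swim (-0.48 ± 0.07, adjusted p = 0.000634). The 6 empty swim libraries were above all others. Lama4, the laminin alpha chain of vessels and muscle, fell by 0.46 ± 0.09 (adjusted p = 0.00557) and Nid1, which links laminin to collagen IV, by 0.44 ± 0.09 (adjusted p = 0.00557), and neither overlapped between the groups. The fit of the 2 groups alone called 2 of the 14.

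Among 19 smooth muscle and pericyte markers, Mcam, an adhesion molecule of pericytes and endothelium, had 64.7 to 90.2 CPM in miR-21 swim and 102 to 149 in empty swim (-0.71 ± 0.10, adjusted p = 0.000560). Higd1b, a pericyte marker of mitochondria, had 6.29 to 9.31 CPM in miR-21 swim and 11.1 to 14.1 in empty swim (-0.63 ± 0.14, adjusted p = 0.0112). Synpo2, an actin-bundling protein of smooth and striated muscle, was the one that rose (0.38 ± 0.11, adjusted p = 0.0404). Mcam and Higd1b did not overlap between groups, Synpo2 did, and the median of the list was -0.17.

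Collagen chain genes were mostly under 0, but few passed. Of 20, 2 fell and 0 rose, with a median of -0.33, beside 2.71% of falls over all genes tested. Col5a3, a chain of fibrillar collagen V, had 26.3, 37.8, 16.4, 20.6 and 22.6 CPM in miR-21 swim, against 28.2, 61.5 and 79.2 in empty swim (-1.22 ± 0.23, adjusted p = 0.00458). Col6a3, a chain of the beaded filaments of collagen VI, had 58.2, 92.7, 33.3, 63.7 and 49.8 CPM in miR-21 swim, against 67.9, 122 and 151 in empty swim (-0.99 ± 0.24, adjusted p = 0.0195). Replicate 2 was the highest of its group in both genes and overlapped empty swim. Without it 9 of the 20 fell and the median was -0.92, the count was 4 without empty swim replicate 3, and it was 1 without miR-21 swim replicate 5 and in the fit of the 2 groups alone. Beside these genes, the activated fibroblast markers summed to 561, 2231, 507, 911 and 607 CPM in miR-21 swim and 721 to 1656 in empty swim, and the macrophage markers to 522, 3086, 575, 914 and 485 CPM in miR-21 swim and 590 to 1117 in empty swim.

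Activated fibroblast markers gave 1 rise and 0 falls among 25, at a median of 0.28, beside 1.87% of rises over all genes tested. Without replicate 2 the median turned to -0.57, with 4 falls and 0 rises. The gene that rose, Wisp2, a matricellular protein of the CCN family, had 20.8, 132, 12.8, 44.5 and 16.7 CPM in miR-21 swim and 6.42, 8.51 and 23.2 in empty swim (2.02 ± 0.58, adjusted p = 0.0486, and 1.08 with adjusted p = 0.179 without replicate 2). Of 20 resident fibroblast markers 2 fell, Cd34, a sialomucin also present on endothelium (-0.63 ± 0.15, adjusted p = 0.0172), and Smoc2, a matricellular protein (-0.32 ± 0.09, adjusted p = 0.0484). The list as a whole was split, with 11 genes under 0 and 9 above it, at a median of -0.06 (-0.25 without replicate 2). Cd34 had 197, 321, 138, 255 and 156 CPM in miR-21 swim, against 270.0, 331 and 366 in empty swim, and only replicate 2 reached that range. Smoc2 held its call in 9 of 34 settings. Without replicate 2, 6 of the 20 fell, beside 914 falls over all genes in that fit. With all libraries 2.71% of all genes tested fell.

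Over all genes tested 2.71% fell. Among 25 metalloproteinases, ADAMTS proteases and their inhibitors 1 fell, Adamts9, which cleaves versican. It had 30.4, 29.4, 23.4, 31.0 and 32.0 CPM in miR-21 swim and 36.7 to 51.9 in empty swim, with no overlap (-0.61 ± 0.12, adjusted p = 0.00693). None of 17 collagen-modifying enzymes and none of 28 elastic fibre and other matrix genes passed the test, with lowest adjusted p of 0.0792 and 0.0684. Without replicate 2, 4 of the proteases and inhibitors, 4 of the collagen-modifying enzymes and 4 of the elastic fibre and other matrix genes fell. That fit had 914 falls over all genes. The median of the elastic fibre and other matrix genes was then -0.48, against -0.02 with all libraries. At an unadjusted p under 0.05 the whole comparison had 2678 genes.

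**Figure D3:**
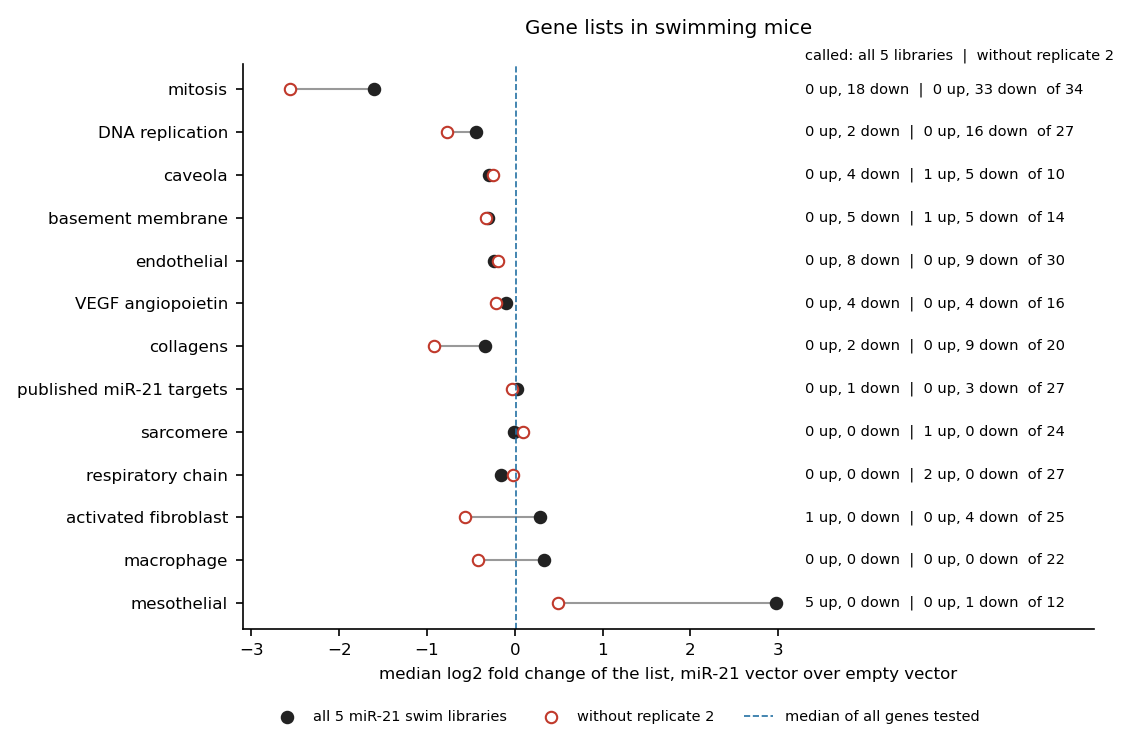
Median log2 fold change of 13 gene lists, miR-21 vector over empty vector in swimming mice (horizontal axis), with all 5 miR-21 swim libraries (filled) and without replicate 2 (open), and the genes called in each direction beside them. The mitosis median was -1.61 with replicate 2 and -2.56 without it, and those of activated fibroblast and macrophage genes crossed 0.

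Among the named genes other than Gm41885, the largest rises by fold belonged to replicate 2. Upk3b, a uroplakin of mesothelium, had 0.150, 55.8, 0.312, 2.21 and 0.165 CPM in miR-21 swim, against 0, 0.0349 and 0.209 in empty swim, a log2 fold change of 7.43 ± 1.78 (adjusted p = 0.0207). One library held nearly all of its counts, and without that library the value was 3.41 (adjusted p = 0.175). Col6a5, a collagen VI chain, had 49.2 CPM in replicate 2 and 1.03 or less in the others, with at most 0.278 in empty swim (7.22 ± 1.94, adjusted p = 0.0372, and 2.44 with adjusted p = 0.476 without replicate 2). Jchain, the joining chain of secreted antibodies and a plasma cell marker, had 0.901, 513, 2.11, 7.07 and 2.55 CPM in miR-21 swim, against 0.283, 0.909 and 4.04 in empty swim (6.25 ± 1.69, adjusted p = 0.0391, and 1.21 with adjusted p = 0.627 without it).

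Of 12 mesothelial markers, 5 rose and 0 fell, at a median of 2.98, and without replicate 2 the list had 0 rises and 1 fall, at a median of 0.49. Lrrn4, a leucine-rich repeat protein of mesothelium, had 0, 43.3, 0, 1.18 and 0.0824 CPM in miR-21 swim (6.61 ± 1.75, adjusted p = 0.0353, and 1.85 with adjusted p = 0.517 without replicate 2), and Upk1b, a second uroplakin, was at 19.8 CPM in replicate 2 and 0.515 or less elsewhere in the group (6.19 ± 1.62, adjusted p = 0.0323, and 1.51 with adjusted p = 0.571). These counts moved with many libraries: the 5 rises became 0 without miR-21 swim replicate 2 or empty swim replicates 2 and 5, 1 without empty swim replicates 1, 3 and 4, 2 without empty swim replicate 6, and 3 without miR-21 rest replicate 1. Inflammatory lists had high medians with few calls: neutrophil genes 3.47 with 0 of 9 called, lymphocyte genes 1.39 with 1 of 13, and macrophage genes 0.33 with 0 of 22. Without replicate 2 those medians were 0.45, 0.14 and -0.42, and 0 genes of the 3 lists were called.

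**Figure D4:**
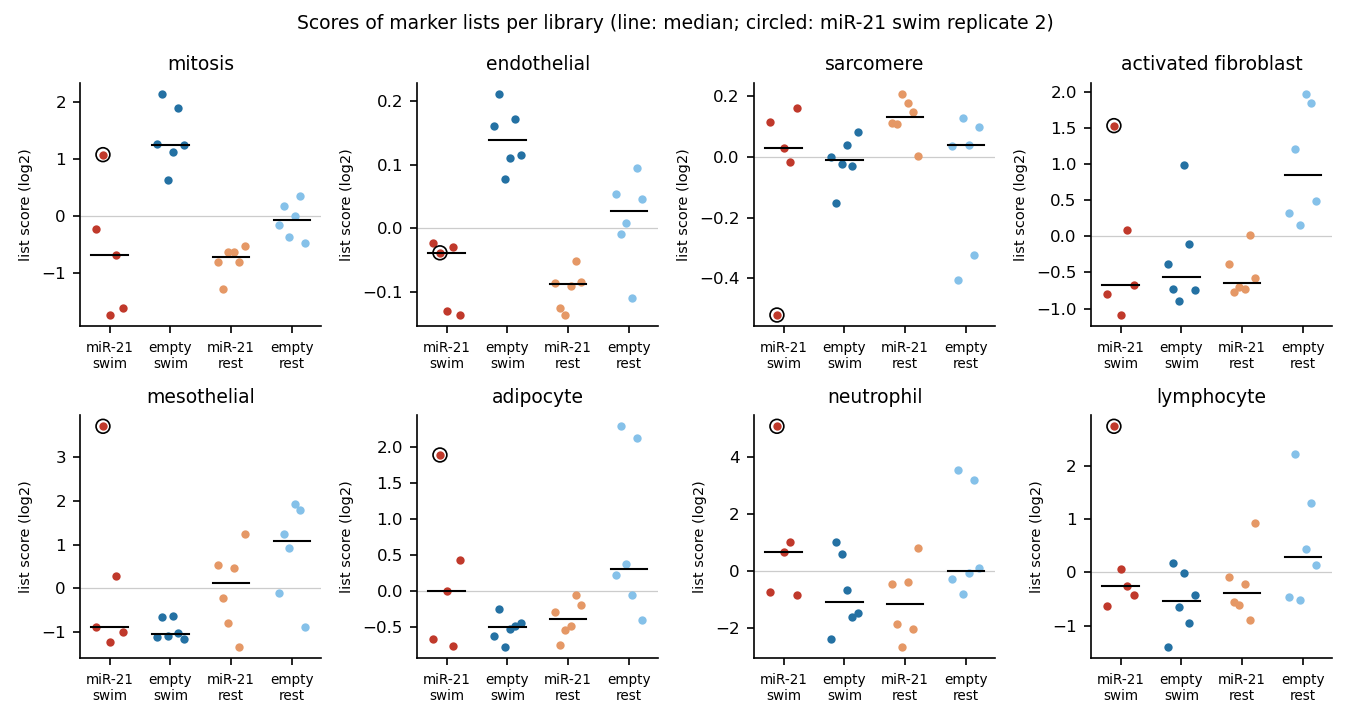
List scores per library (mean log2 CPM of the list after centring each gene, vertical axes) for 8 marker lists in miR-21 swim, empty swim, miR-21 rest and empty rest, with a line at the median and miR-21 swim replicate 2 circled. Replicate 2 has the highest mesothelial (3.71), neutrophil (5.09) and lymphocyte (2.74) scores of all libraries, and the endothelial scores of miR-21 swim (-0.14 to -0.02) lie below those of empty swim (0.08 to 0.21).

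Several other rises were largest in replicate 2 and kept their direction without it. Plppr3, a brain-enriched lipid phosphatase-related protein, had 1.58, 9.94, 1.72, 1.84 and 0.989 CPM in miR-21 swim, against 0.0765, 0.632 and 1.19 in empty swim (2.24 ± 0.57, adjusted p = 0.0281, and 1.17 with adjusted p = 0.0972 without replicate 2). Nrg1, the neuregulin that signals from endothelium to heart muscle through ErbB4, had 4.58, 12.2, 5.38, 5.01 and 6.01 CPM in miR-21 swim, against 0.557, 1.88 and 3.86 in empty swim. All 5 exceeded all 6, at 1.68 ± 0.48 (adjusted p = 0.0493), and 1.35 with adjusted p = 0.0814 without replicate 2. Slc6a7, the proline transporter, rose by 2.19 ± 0.55 (adjusted p = 0.0271) and Aldh3a1, an aldehyde dehydrogenase, by 1.83 ± 0.49 (adjusted p = 0.0347), and without replicate 2 they were at 1.5 (adjusted p = 0.0582) and 1.41 (adjusted p = 0.0553).

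Rises that kept their call without replicate 2 included Cxcl14, a chemokine, and Masp1, a protease of the lectin pathway of complement. Cxcl14 had 14.9, 20.4, 23.3, 30.6 and 27.7 CPM in miR-21 swim, against 5.92, 7.22 and 15.3 in empty swim (1.34 ± 0.32, adjusted p = 0.0187, and 1.39 without replicate 2). Replicate 1 alone lay within the empty swim range. Masp1 had 23.9 to 50.6 CPM in miR-21 swim and 10.6 to 21.0 in empty swim, with no overlap (0.85 ± 0.21, adjusted p = 0.0231, and 0.63 without replicate 2). Fosb, an immediate early factor, rose by 1.83 ± 0.51 (adjusted p = 0.0419), at 0.375, 1.47, 4.68, 0.957 and 0.989 CPM in miR-21 swim and 0.209 to 0.778 in empty swim, with replicate 3 highest.

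**Figure D5:**
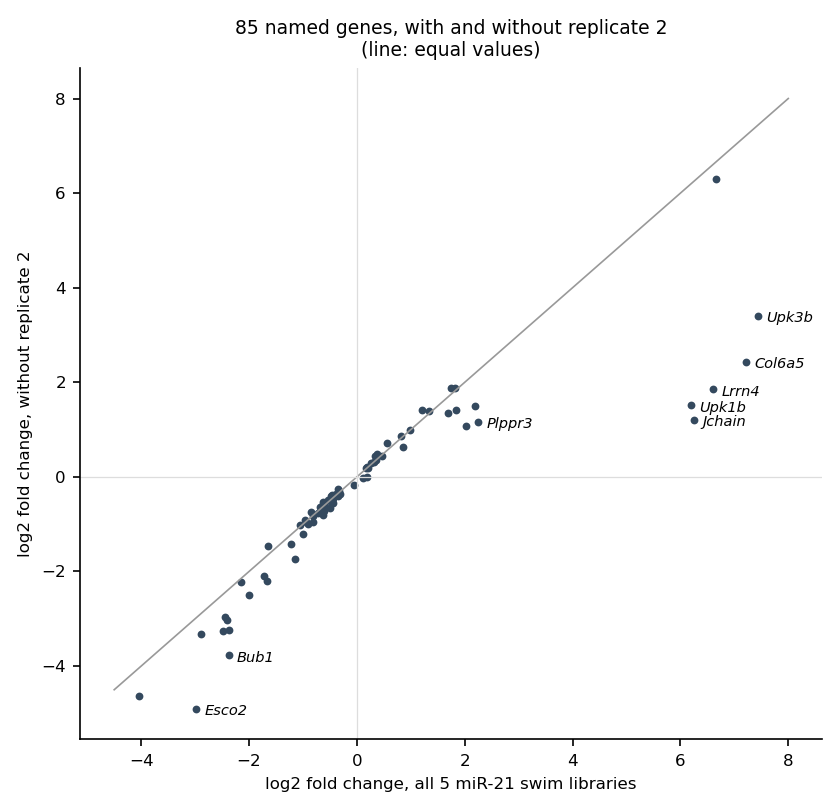
Log2 fold changes of 85 named genes, miR-21 vector over empty vector in swimming mice, with all 5 miR-21 swim libraries (horizontal axis) and without replicate 2 (vertical axis), with a line of equal values. Most genes lie near the line, Upk3b, Col6a5, Jchain, Lrrn4 and Upk1b lie far below it, and Esco2, Bub1 and other mitosis genes lie below it on the negative side.

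Genes of the sarcomere, fatty acid oxidation and the respiratory chain were little changed with all 5 miR-21 swim libraries. None of 24 sarcomere genes (median -0.01, lowest adjusted p = 0.141), 25 fatty acid oxidation genes (-0.04, 0.428) and 27 respiratory chain genes (-0.16, 0.102) passed the test. Without replicate 2 the respiratory chain list had 2 rises at a median of -0.02. The sarcomere and fatty acid oxidation lists then had 1 rise each, at medians of 0.09 and 0.13, beside 957 rises over all genes. Hdac4, a class IIa histone deacetylase that restrains MEF2, had 39.3, 27.4, 44.8, 39.3 and 43.0 CPM in miR-21 swim and 28.0 to 33.6 in empty swim (0.33 ± 0.09, adjusted p = 0.0447). Replicate 2 lay below empty swim and the other 4 were above it. Slc2a1, the glucose transporter GLUT1, rose by 0.27 ± 0.07 (adjusted p = 0.0356) as the one of 26 glycolysis and hypoxia genes, beside 1.87% of all genes tested. Without replicate 2, 6 of the 26 rose, beside 957 rises over all genes in that fit. Among the libraries with title numbers of 2000 and above 5 rose, beside 647 over all genes.

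Ribosomal protein genes were picked by symbol after values had been seen. Of 82, 23 fell, 0 rose and 81 were under 0, with a median of -0.21, beside 2.71% of falls over all genes tested. Rps29, of the small subunit, had 164, 209.7, 236, 190.5 and 201 CPM in miR-21 swim, against 213, 321 and 371 in empty swim (-0.63 ± 0.11, adjusted p = 0.00327), and Rpl9, of the large subunit, had 139 to 168 CPM in miR-21 swim and 195 to 233 in empty swim (-0.46 ± 0.08, adjusted p = 0.00237). The groups overlapped for Rps29 and not for Rpl9. The 23 calls were 52 without miR-21 swim replicate 2 and 5, 7 and 8 without its replicates 1, 4 and 5. They were 8, 11, 10 and 10 without empty swim replicates 2 to 5, 15 without any one of empty rest replicate 5 and miR-21 rest replicates 1 and 2, and 3 in the fit of the 2 groups alone. Near-identical pseudogenes can share reads with these genes, so single members are uncertain.

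Immune and secreted factors added few calls, beside 2.71% of falls and 1.87% of rises over all genes tested. Xaf1 (-0.35 ± 0.08, adjusted p = 0.0163) and Ifi44 (-0.50 ± 0.14, adjusted p = 0.0380), interferon-induced genes, fell among 22 interferon response genes, of which 21 were under 0 at a median of -0.20, and without replicate 2 there were 6 falls. Wif1, a secreted inhibitor of Wnt ligands, had 2.70, 1.12, 2.50, 2.06 and 3.13 CPM in miR-21 swim, against 3.76, 6.08 and 15.7 in empty swim (-1.65 ± 0.34, adjusted p = 0.00681), and was the one call among 20 Wnt pathway genes. Its empty swim libraries exceeded all 17 others. Of those 20 genes 16 were above 0, at a median of 0.35 (-0.0019 without replicate 2). Fabp4, a fatty acid carrier of capillary endothelium and fat, had 585 to 659 CPM in miR-21 swim and 718 to 859.8 in empty swim (-0.38 ± 0.09, adjusted p = 0.0152). It was the 1 call among 14 tested adipocyte markers, and the list went mostly the other way. Of the 14, 12 were above 0, at a median of 0.45 (0.27 without replicate 2). Msrb1, a selenoprotein that repairs oxidised methionine, fell by 0.33 ± 0.10 (adjusted p = 0.0484), a call kept in 15 of 34 settings. Adipocyte markers, of which Ucp1 was at 0 in all 11 libraries, summed to 1077 to 1549 CPM in miR-21 swim and 1309 to 1423 in empty swim. Fabp4 alone made up a large part of these sums. The adipocyte list score, which weighs each gene alike, was -0.76 to 1.89 (median 0.00031) in miR-21 swim, with replicate 2 highest. In empty swim that score was -0.78 to -0.25 (median -0.51).

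Of the 78 genes named here that were called, 50 kept the call whichever single library was left out, and 28 lost it without at least 1. Cd34, Col6a3 and Gimap8 lost it without miR-21 swim replicate 5, Cxcl14 without replicate 4 of that group and Masp1 without empty swim replicate 2, at adjusted p of 0.0513 to 0.0537. Upk3b lost it without miR-21 swim replicate 2 or empty swim replicates 2 and 5. Bub1 lost it without miR-21 swim replicates 1, 4 and 5 or empty swim replicate 2, and Prox1 without miR-21 swim replicates 1 and 5 or empty swim replicates 2 and 5, at up to 0.0667. Plppr3, Jag2, Slc6a7, Cdc45, Upk1b, Col6a5, Jchain, Lrrn4, Aldh3a1, Ccnd2, Slc2a1, Synpo2, Uhrf1 and Fosb lost it without 4 to 9 single libraries, each of them a swimming library except miR-21 rest replicate 1 (Uhrf1, Fosb) and miR-21 rest replicate 2 (Fosb). Hdac4 lost it without 10 libraries, Ifi44 without 12, Msrb1 and Wisp2 without 15, Nrg1 without 17 and Smoc2 without 20, so these 6 calls rest close to the threshold. The number of these genes that lost the call was highest without empty swim replicate 2 (22) and replicate 5 (21).

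The same vectors were compared at rest in other libraries. Empty rest replicates 2, 4 and 5, far out on the first principal component, entered that comparison and the interaction below. There 304 genes were called (2.25% of those tested), and 27 were called in both swimming and resting mice, which is 4.37% of the 618 and 8.88% of the 304. Of the 27, 15 fell in both, 8 rose in both and 4 went in opposite directions. The resting value had the same sign as the swimming value in 435 of the 618 genes (70.4%), against 52.1% of all genes tested. Mcam was among those that fell in both (-0.53 ± 0.10 at rest, adjusted p = 0.0131), and Hdac4 rose in both (0.59 ± 0.09 at rest, adjusted p = 0.00431).

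The vector effect itself differed between swimming and resting mice, by the interaction term, in 73 genes (0.541%), of which 41 were among the 618 (20 that rose and 21 that fell with the vector in swimming mice). The swimming difference is part of the interaction, so an overlap of these sets is built in. Rab4a had a resting log2 fold change of 0.27 ± 0.12 (adjusted p = 0.149) and an interaction of 1.48 ± 0.18 (adjusted p = 0.000260). Wdfy1 had -0.05 ± 0.10 at rest and an interaction of 1.02 ± 0.15 (adjusted p = 0.00311). Cav1 (-0.76 ± 0.12, adjusted p = 0.00375), Cav2 (-0.63 ± 0.11, adjusted p = 0.0117) and Tspan2 (-0.99 ± 0.18, adjusted p = 0.0135) also passed. In these 5 genes the 6 empty swim libraries lay on one side of all 17 others. Slc6a7 fell with the vector at rest (-2.71 ± 0.53, adjusted p = 0.0175) while it rose in swimming mice, an interaction of 4.90 ± 0.77 (adjusted p = 0.00375).

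The count of 73 moved widely with single libraries. It was 147 without empty rest replicate 3, 38 without replicate 4, 19 without replicate 5 and 174 without replicate 6 of that group. It was 25, 38, 45, 18 and 27 without empty swim replicates 1, 2, 3, 5 and 6, and 34, 25, 21 and 26 without miR-21 rest replicates 1 to 4. Without miR-21 swim replicates 1, 2, 3 and 5 it was 243, 32, 305 and 358.

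In the authors' deposited table of the same comparison 145 genes had a q-value under 0.05, 22 higher and 123 lower with the miR-21 vector. Of these, 136 were also among the 618 genes (93.8% of the authors' list and 22% of the 618), all 136 in the same direction. The authors' deposited table gives Sox7 a log2 fold change of -0.84 with a q-value of 0.0100, Sox18 one of -0.45 with 0.0444, and Sox17 one of 0.18 with 1.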

How the data were processed

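The authors deposited a table of raw counts per gene and library, whole numbers with no normalisation. TRIzol extraction and a stranded mRNA kit are stated per the labels' protocols, and the GRCm39 build per the submitters' processing notes. For the aligner and counter, the name is not given in the sources used here. Of 24 labelled samples, 23 had count columns used, and 69 other per-sample columns were not used.

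In R 4.3.3 with edgeR 4.0.16, genes were filtered with filterByExpr (minimum count 10) and given TMM scaling factors. A quasi-likelihood model of 4 groups with robust dispersion was fitted to all 23 libraries, so that the groups share 1 estimate of spread. A gene was called where its p, adjusted by Benjamini-Hochberg, was under 0.05. A log2 fold change carries its standard error (SE), and CPM are TMM-scaled. Depths of 12744241 to 14657630 counts limit precision for genes under about 1 CPM. The model was also run on simulated counts with 200 changed genes, and no outcome is given here. Those counts held no outlying library such as miR-21 swim replicate 2, so its effect was not tested by them. Alternatives used DESeq2 1.42.0 and limma 3.58.1, other scaling and filters, the 2 groups alone, the title numbers, list scores as covariates, and each library left out. Tables were made in Python 3.11.15 (pandas 2.3.3, numpy 2.4.6) and plots with matplotlib 3.10.9.

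The authors' deposited comparison table gave log2 fold changes (miR-21 vector over empty vector), computed by the authors from their mean normalised signal per group, and their p-values and q-values, with a tool not named in it. It was used only where named.

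The genes named are Sox7 and Vmp1, the 6 rises and 6 falls with the smallest p, the 8 largest rises and falls with all 5 libraries on 1 side of the other group's mean (mean of at least 1 CPM, no Gm or Rik names), up to 3 called genes with the smallest p from each of 49 lists, and listed miR-21 targets. The members and lists (907 genes, 860 tested) were chosen with earlier results of these data known. Genes named outside the rule are marked, and 1 gene that the rule names is not reported here. List scores are means of log2 CPM (prior count 2) after centring each gene. Sites were searched in 3' UTRs of at least 30 bases from GRCm38, so no coordinates of the counts' build are printed.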

Additional observations from a re-analysis of the deposited data

Results flagged for a closer look

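A library is given here where its gap to the nearest other library, as a share of its group's range, exceeded Dixon's 95% critical value (0.71 for 5 libraries, 0.625 for 6), on log2 of CPM plus 0.5. Of 170 groups of libraries examined, 22 had such a library, and chance gives about 1 in 20 for genes picked without sight of their values. Most of the named genes were picked from these same values, so the 22 cannot be set against that rate. In 11 of the 22 the library was miR-21 swim replicate 2. It was the highest for Pydc3 (0.766), Col6a5 (0.783), Plppr3 (0.767), Nrg1 (0.728), Uhrf1 (0.851), Jchain (0.714), Upk1b (0.809) and Lrrn4 (0.729), and the lowest for Prox1 (0.758), Jag2 (0.713) and Hdac4 (0.736). The other 2 in miR-21 swim were replicate 5, highest for Wdfy1 (0.744), and replicate 3, lowest for Adamts9 (0.715). In empty swim, replicate 5 was highest for Wdfy1 (0.635) and Cav2 (0.665). Replicate 3 of empty swim stood apart for Tspan2 (0.652), Sox17 (0.631), Masp1 (0.683) and Itga1 (0.764), replicate 4 for Col6a5 (0.687), replicate 2 for Lrrn4 (0.747) and replicate 1 for Rplp2 (0.829).

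For 11 of the 85 named genes the effect of the miR-21 vector differed between swimming and resting mice by the interaction term (log2, adjusted p under 0.05 in the edgeR fit). Over all genes tested the share was 0.541%. Most of the 85 were named for their difference in swimming mice, which is part of the interaction, so a larger share is built in. The sign of the interaction varied between the 11 genes. The interaction was positive for Rab4a (1.48), Wdfy1 (1.02), Slc6a7 (4.90), Wisp2 (3.75), Cxcl14 (2.10) and Gm41885 (7.44), and negative for Tspan2 (-0.99), Cav1 (-0.76), Cav2 (-0.63), Wif1 (-2.37) and Mest (-1.86). Wisp2 and Slc6a7 also moved with miR-21 swim replicate 2, which had the highest level of both in its group. The part of that library in their interaction was not tested.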

How the results depend on the processing

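The number of genes called was 618, with 252 rises and 366 falls, and 73 by the interaction term. DESeq2 called 970 genes (439 rises) and 719 by interaction, and limma voom with quality weights 2715 (1290 rises, 1425 falls) and 147 by interaction. The 2 groups alone gave 165 (58 rises, 107 falls), and title numbers of 2000 and above 647 rises and 697 falls. The 3 libraries highest in adipocyte score were empty rest replicates 2 and 5 and miR-21 swim replicate 2. The fit without these 3 libraries gave 2318 (1164 and 1154), and the fit with adipocyte and mesothelial scores as covariates 2450 (1124 and 1326). Without single libraries the total ran from 330 to 1871, rises from 115 to 957, falls from 215 to 914 and interaction calls from 18 to 358. The cause of these moves was not tested. Fewer libraries entered the fits of the 2 groups and of the title numbers, the first with fewer calls and the second with more. The count was 605 with RLE scaling, 595 with upper-quartile scaling, 491 without a filter, 606 with a mean of at least 1 CPM, and 707 where the model held the title number series, which kept 420 of the 618 genes. With other scaling, the shift in log2 fold change from the main fit had a median over genes of at most 0.0033. Of the 78 called genes named here, 31 kept their call in every setting that could be fitted, among them Rab4a, Wdfy1, Camk2b, Nnt, Pydc3, Ccnd1, Cav1, Nrp2, Aspm, Mcam and Sox7, and 47 lost it in at least 1, most often in the fit of the 2 groups alone. Vmp1, not called in any setting, turned to -0.062 with voom, -0.028 without the 3 libraries, -0.067 with covariates and -0.022 without miR-21 swim replicate 2, and reached 0.19 without replicate 1. Pdcd4 turned to -0.0058 without the 3 libraries, -0.056 with covariates and -0.00074 without replicate 2 (0.26 without replicate 1), and Reck to 0.031 and 0.0018 without miR-21 swim replicates 1 and 5 (-0.17 without replicate 2). No paired analysis was possible because the numbers in the sample titles are not shared across groups. Genes at a few counts per library, such as Esco2 and Upk3b, are limited by depth.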
